A study of Mus musculus with 2 samples.

Results

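The genes that write, read and remove histone acetylation and the genes that move nucleosomes were compared between the second polar body (PB2) and the zygote of the mouse. Members were the table entries whose symbols match the families Hdac, Sirt, Kat, Brd, Brpf, Ing, Smarc, Arid, Chd, Ino80, Baz, Ruvbl, Mta and Sin3, together with Ep300, Ep400, Crebbp and Bptf, and this rule used no measured value. The rule takes only numbered Brd symbols, so it leaves out Brdt, and it takes no Arid3 gene. It found 78 of 11262 genes in the table, and 75 of them reached 1 TPM, the measure of transcript abundance used here, in at least 1 library. Chd2, Chd3 and Arid5a stayed below 1 TPM in both libraries and were not compared.

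PB2 is the small cell cast off when the egg completes meiosis after fertilization, and it carries a little ooplasm with it. The study sequenced it to look for molecules that PB2 might supply to the embryo. The embryos were of the inbred strain given as C57BL/6 in the labels, and as C57BL/6N in the methods for experiments not otherwise stated. Per the methods, females were super-ovulated with the hormones PMSG and HCG and then mated. Embryos were taken from the oviduct, and hyaluronidase was used to remove granule cells. With no experimental treatment, they were kept in KSOM medium until late in the 1-cell stage. Acid Tyrode's solution was then used to strip the zona, and trypsin with pipetting to free PB2. PB2s and zygotes were each pooled into 1 library of amplified full-length polyA cDNA. The groups thus share strain, hormone treatment, culture and dissociation and differ in the cell that was lysed. The number of animals behind each pool is not given, and there are no replicates, so no difference below could be set against a replicate spread and no test was possible.

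Lysine acetyltransferases add acetyl groups to histone tails, bromodomain proteins bind the acetylated lysines, and histone deacetylases and sirtuins take the groups off again. Remodelers of the SWI/SNF (BAF), ISWI, CHD and INO80 families use ATP to slide, evict or exchange nucleosomes, and several carry bromodomains. The egg stores such factors as maternal mRNA and protein, which the zygote uses to repackage the parental genomes before its own transcription is fully under way.

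A TPM value is a share of a library adjusted for transcript length. A higher TPM in PB2 therefore does not mean more molecules per PB2, and in these bulk libraries fewer cells of a type and less RNA per cell cannot be told apart. The depth of each library is unknown. Oocyte markers were abundant in both libraries, with all 12 of the list present at 62.7 to 22561.9 TPM in the zygote and 99.5 to 22397.3 TPM in PB2. Of 15 cumulus and granulosa markers, 5 were in the table, and they summed to 81.0 TPM in the zygote against 81.1 TPM in PB2. Nearly all of that sum was Cyp19a1, the aromatase of granulosa cells, at 72.2 TPM and 70.9 TPM.

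As a set, the members were higher in PB2. Together they held 2382.3 TPM in the zygote against 3493.6 TPM in PB2, which is 1.47-fold more. The deposited TPM was higher in PB2 for 60 members, lower for 17 and equal for 1, the scaffold gene Brpf1. The median member stood at 13.4 TPM in the zygote against 20.2 TPM in PB2, against 8.7 and 11.1 TPM for all genes of the table. Ratios are given as log2((PB2 TPM + 1)/(zygote TPM + 1)), so a positive value means higher in PB2 and changes of genes with low TPM are understated. The log2 ratio was above 0 for 58 of the 75 members compared (77.3%), beside 59.2% of all genes, and below 0 for 16, beside 40% of all genes. The median log2 ratio was 0.61 over the 75 members compared and 0.21 over all 10645 genes compared.

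Past 2-fold on this scale, 20 of 75 members (26.7%) were higher in PB2, beside 18.9% of all genes compared, and 1 member (1.33%), Ruvbl1, was higher in the zygote, beside 8.09% of all genes. The PB2 share of the members was thus moderately above the background, and the zygote share below it. With the log2 ratios centred on the median of all genes, 14 members were past 2-fold toward PB2 (background 13.0%) and 1 toward the zygote (background 12.1%). At 1.5-fold, 39 members stood toward PB2 (background 34.2%) and 2 toward the zygote (background 18.1%). At 4-fold no member was called in either direction, beside 2.48% of all genes toward PB2 and 0.695% toward the zygote. Transcript GC content moved with these counts. When a smooth trend of the log2 ratio on GC content was subtracted, 2 members, Arid4b among them, were past 2-fold toward PB2 (background 9.53%) and 2, Ruvbl1 and Sin3b, toward the zygote (background 10.5%). A trend fitted without the members gave the same counts, beside 9.55% and 10.5% of all genes. The 20 members past 2-fold toward PB2 before that step all kept log2 ratios above 0 after it, the lowest at 0.28. They had been picked for high ratios, so this was close to fixed by the choice and says little about stability. Just inside the 2-fold threshold were Kat5 (1.01), Kat8 (1.05) and Ep400 (1.09) as log2 ratios, and just outside it were Crebbp (0.98), Chd7 (0.98), Arid4b (0.96) and Smarcc1 (0.94).

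**Figure D1:**
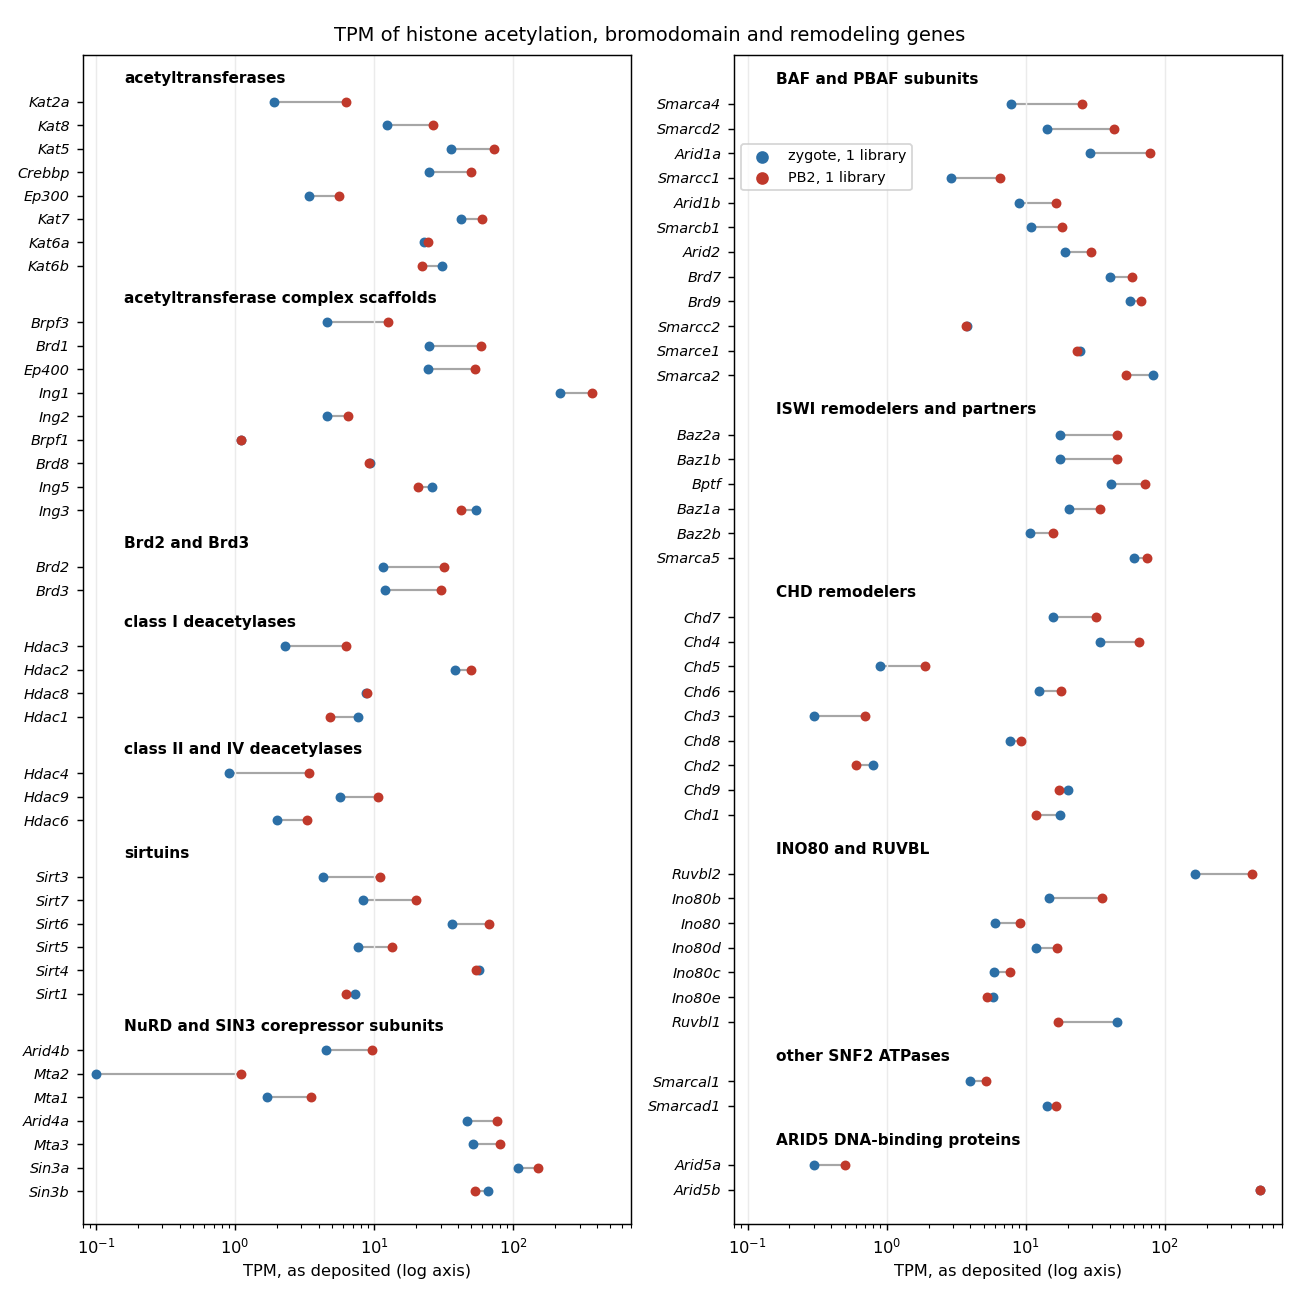
Deposited TPM of the members, 1 left out, in the zygote library (blue) and the PB2 library (red), on log axes and grouped by role; each point is 1 library and a line joins the values of a gene. In most rows the red point lies to the right of the blue one, while Ruvbl1 (45.1 TPM in the zygote, 16.9 in PB2) and Smarca2 (82.0 and 52.1) lie the other way, and Arid5b sits far to the right at about the same level in both.

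**Figure D2:**
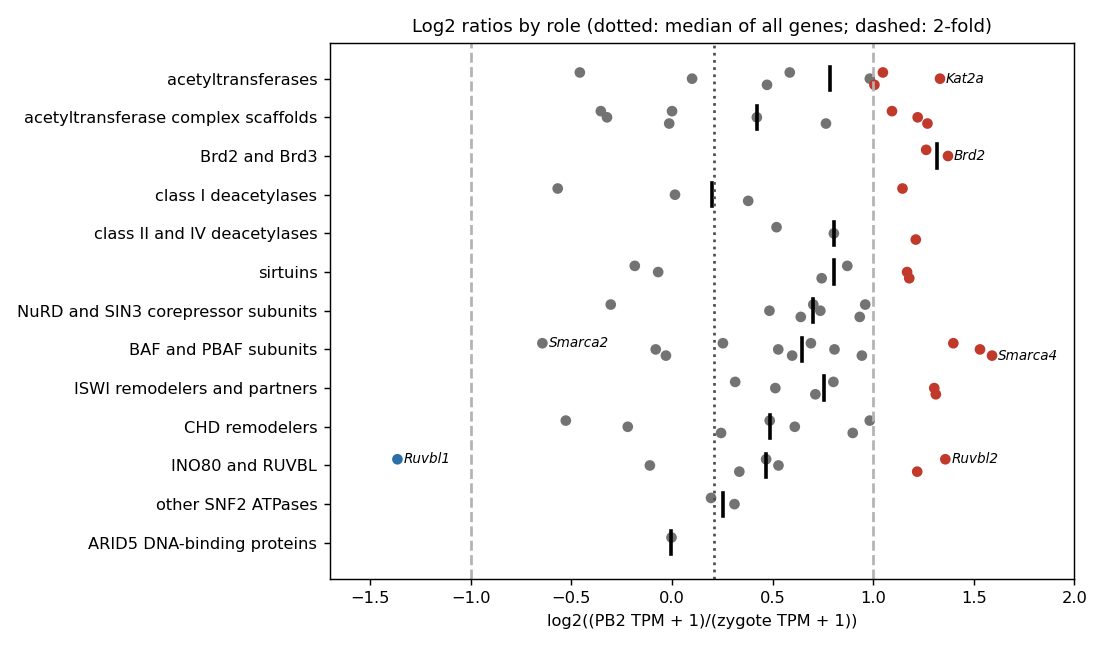
Log2 ratio of the compared members, 1 left out, by role group, PB2 over zygote; each point is a gene, black bars are medians of the points shown, the dotted line is the median of all genes (0.21) and dashed lines mark 2-fold. Points past 2-fold toward PB2 are red and Ruvbl1, the only member past 2-fold toward the zygote, is blue; Brd2 and Brd3 both lie past 2-fold.

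A few members accounted for much of the signal. Arid5b, Ing1, Ruvbl2 and Sin3a were the only members at 100 TPM or more, in both libraries alike, and held 40.8% of the members' TPM in the zygote and 40.7% in PB2. Arid5b, a DNA-binding protein that works with a histone demethylase, was at 482.9 TPM in the zygote against 480.8 TPM in PB2, with a log2 ratio of -0.01. It was the most abundant member and hardly differed between the libraries. The number of members at 50 TPM or more was 11 in the zygote and 21 in PB2, and the number under 5 TPM was 19 and 11.

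The first base sequences shown are those in front of the start of Ruvbl1, the member that stood furthest toward the zygote, and of Smarca4, an ATPase gene whose log2 ratio was among the highest toward PB2. Each is the 250 bases upstream of the start in RefSeq (build GRCm38.p6, 5′ to 3′ on the gene's own strand), and capitals mark matches, on either strand, to GGGCGG (a GC box), CCAAT or TATAAA. Motifs were chosen after the values were seen, and a match is a description of letters only. Ruvbl1 lies on the plus strand with this window at chr6:88465159-88465408, and Smarca4 on the plus strand with its window at chr9:21615919-21616168.
Ruvbl1: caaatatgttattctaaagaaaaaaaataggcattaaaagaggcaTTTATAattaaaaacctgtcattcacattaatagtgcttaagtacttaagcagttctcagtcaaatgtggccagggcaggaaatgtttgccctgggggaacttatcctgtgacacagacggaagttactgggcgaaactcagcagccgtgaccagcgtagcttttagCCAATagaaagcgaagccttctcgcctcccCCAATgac
Smarca4: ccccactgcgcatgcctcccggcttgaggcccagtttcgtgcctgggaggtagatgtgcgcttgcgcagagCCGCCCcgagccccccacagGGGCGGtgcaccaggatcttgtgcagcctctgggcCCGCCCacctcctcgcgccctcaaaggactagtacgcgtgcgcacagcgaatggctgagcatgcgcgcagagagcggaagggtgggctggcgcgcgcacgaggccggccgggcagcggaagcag
The windows differ plainly in composition. That of Ruvbl1 has 42.4% GC, 6 CG dinucleotides, 2 CCAAT matches and 1 TATAAA match and no GC box, and that of Smarca4 has 70.8% GC, 25 CG dinucleotides and 3 GC boxes. Among 62 members with such a window, GGGCGG was present in 46 (74.2%), CCAAT in 22 (35.5%) and TATAAA in 7 (11.3%), against 32.7%, 33.8% and 12.4% of all 32851 windows. CACGTG was present in 4 members (6.45%, against 6.02% of all windows). The median GC content was 62.6% in the members' windows and 52.4% in all windows, so the GC box counts are those of a GC-rich set. A member with several windows was represented by 1 of them. The shares over all windows count every window and were not limited to genes of the table, so the compared sets are not alike. Some windows lie far from the annotated 5′ end of the gene, such as those of Baz2b (84099 bases) and Sirt1 (42669 bases).

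Among the acetyltransferases, all 8 were compared, 3 were past 2-fold toward PB2, beside 18.9% of all genes, and the median log2 ratio was 0.78. After subtraction of the GC trend the median was 0.34, and Kat2a, Kat5 and Kat8 had log2 ratios of 0.51, 0.43 and 0.64, so none of the 8 was past 2-fold. Kat5 (TIP60), the enzyme of the NuA4 complex, was at 35.9 TPM in the zygote against 73.1 TPM in PB2, with a log2 ratio of 1.01. Kat8 (MOF), which acetylates histone H4, went from 12.3 TPM in the zygote up to 26.5 TPM in PB2, with a log2 ratio of 1.05. These enzymes of separate complexes thus stood apart by about the same ratio. Kat2a (GCN5), the enzyme of the SAGA and ATAC coactivators, was low in both, at 1.9 TPM and 6.3 TPM with a log2 ratio of 1.33. Kat7 (HBO1), tied to replication origins and H3 acetylation, was at 42.4 TPM in the zygote against 59.2 TPM in PB2, with a log2 ratio of 0.47.

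The coactivators CBP and p300 are close paralogs, and Crebbp (CBP) was the more abundant of the pair. Its TPM was 24.6 in the zygote and 49.6 in PB2, a log2 ratio of 0.98 that falls just short of 2-fold. Ep300 was at 3.4 and 5.6 TPM with a log2 ratio of 0.58, so that Crebbp made up 87.9% of the pair's TPM in the zygote and 89.9% in PB2. The Kat6 enzymes, MOZ and MORF, were near each other in level and changed order. Kat6b was at 30.6 TPM in the zygote and 22 in PB2, a log2 ratio of -0.46, and Kat6a was at 22.8 and 24.5 TPM, a log2 ratio of 0.10. Kat6a's share of the pair was 42.7% in the zygote and 52.7% in PB2.

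The subunits that scaffold acetyltransferase complexes or read chromatin for them divided in their direction. Past 2-fold toward PB2 were 3 of 9 compared, beside 18.9% of all genes, and the group median log2 ratio was 0.42. The 9 include Ing1 and Ing2, which belong to SIN3 deacetylase complexes, and this median is the value of Ing2. Subtracting the GC trend gave a median of 0.09, which is the value of Ing1. Brd1, Brpf3 and Ep400 then had log2 ratios of 0.77, 0.59 and 0.66, so none of the 9 was past 2-fold. Brd1, a bromodomain scaffold of the HBO1 and MOZ enzymes, was at 24.7 TPM in the zygote against 58.9 TPM in PB2, with a log2 ratio of 1.22. Its relative Brpf3 was at 4.6 and 12.5 TPM, a log2 ratio of 1.27, while Brpf1 was at 1.1 TPM in each. Ep400, the large ATPase and scaffold of NuA4, was at 24.5 and 53.4 TPM, a log2 ratio of 1.09. Brd8, another NuA4 subunit, was at 9.3 and 9.2 TPM, a log2 ratio of -0.01.

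ING proteins hold acetylase or deacetylase complexes to methylated histone H3. Ing1, which belongs to SIN3 deacetylase complexes, was the second most abundant member in the zygote at 216.2 TPM and reached 368.1 TPM in PB2, a log2 ratio of 0.76. Ing3, the ING subunit of NuA4, was at 53.7 TPM in the zygote against 41.8 TPM in PB2, with a log2 ratio of -0.35. Ing5, which serves HBO1 and MOZ, was also lower in PB2, at 25.9 and 20.5 TPM with a log2 ratio of -0.32. Within NuA4, then, Kat5 and Ep400 were higher in PB2 by their TPM while Ing3 was lower and Brd8 nearly equal. With the GC trend subtracted, Ing3 (-0.08) and Brd8 (-0.07) were about level, below Kat5 (0.43) and Ep400 (0.66).

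Brd2 and Brd3 were past 2-fold toward PB2. These proteins of the BET family carry a double bromodomain and bind acetylated histone tails. Brd2 was at 11.6 TPM in the zygote against 31.6 TPM in PB2, with a log2 ratio of 1.37, and Brd3 at 12.0 and 30.2 TPM with a log2 ratio of 1.26. They were near each other in level in each library. After subtraction of the GC trend the log2 ratios were 0.91 for Brd3 and 0.55 for Brd2, so neither remained past 2-fold.

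Deacetylases of class I were low apart from Hdac2, and their median log2 ratio of 0.20 was near that of all genes. Hdac2 was at 38 TPM in the zygote against 49.7 TPM in PB2, with a log2 ratio of 0.38. Hdac1, its close paralog in the NuRD and SIN3 complexes, stood the other way at 7.6 and 4.8 TPM with a log2 ratio of -0.57. Hdac3, the enzyme of the NCoR corepressor, was past 2-fold toward PB2 with 2.3 and 6.3 TPM and a log2 ratio of 1.15, or 0.87 with the GC trend subtracted. Hdac8, at 8.8 and 8.9 TPM, differed by no more than the last decimal deposited and had a log2 ratio of 0.01. As shares of the 4 genes, Hdac2 held 67.0% in the zygote and 71.3% in PB2, Hdac1 13.4% and 6.89%, and Hdac3 4.06% and 9.04%.

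Class II deacetylases, which shuttle between nucleus and cytoplasm or act on cytoplasmic targets, were all low and all higher in PB2, except that the sign of Hdac6 turned with the GC trend subtracted. Hdac4 was at 0.9 TPM in the zygote against 3.4 TPM in PB2, with a log2 ratio of 1.21, or 0.77 with the GC trend subtracted. The tubulin deacetylase Hdac6 was at 2.0 and 3.3 TPM with a log2 ratio of 0.52, and Hdac9 at 5.7 and 10.7 TPM with a log2 ratio of 0.80.

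Sirtuins are deacetylases and deacylases that consume NAD. Of 6 compared, 2 were past 2-fold toward PB2, beside 18.9% of all genes, and the median log2 ratio was 0.81. The median was 0.17 with the GC trend subtracted, when neither Sirt3 (0.64) nor Sirt7 (0.31) was past 2-fold and Sirt6 had a log2 ratio of 0.02. Sirt7, of the nucleolus, was at 8.3 TPM in the zygote against 19.9 TPM in PB2, with a log2 ratio of 1.17. Sirt3, of the mitochondrial matrix, was at 4.3 and 11.0 TPM with a log2 ratio of 1.18. The most abundant were Sirt6, a nuclear enzyme that acts on histone H3, at 36.4 and 67.4 TPM with a log2 ratio of 0.87, and Sirt4, of mitochondria, at 56.8 and 54.1 TPM with a log2 ratio of -0.07. Mitochondrial and nuclear members thus occurred on both sides, since Sirt5 (mitochondrial) had a log2 ratio of 0.74 and Sirt1 (nuclear) one of -0.19.

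Corepressor subunits of NuRD and SIN3 were mostly higher in PB2, but none of the 7 was past 2-fold with the pseudocount of 1, and their median log2 ratio was 0.70. With a pseudocount of 0.1, Arid4b, Mta1 and Mta2, all low, were past 2-fold toward PB2, beside 24.6% of all genes. The group median was 0.36 with the GC trend subtracted. The scaffold Sin3a was at 108.1 TPM in the zygote against 151.6 TPM in PB2, with a log2 ratio of 0.48. Its paralog Sin3b was at 65.7 and 53.0 TPM, a log2 ratio of -0.30, so the Sin3a share of the pair was 62.2% in the zygote and 74.1% in PB2. With the GC trend subtracted, Sin3b had a log2 ratio of -1.03 and was past 2-fold toward the zygote. The SIN3 subunit Arid4a was at 46.7 and 76.6 TPM with a log2 ratio of 0.70. Its relative Arid4b was at 4.5 and 9.7 TPM with a log2 ratio of 0.96, which became 1.26 after the GC step.

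MTA proteins join the deacetylase to the rest of NuRD, and Mta3 was nearly the whole of this family here. It was at 51.5 TPM in the zygote against 80.8 TPM in PB2, with a log2 ratio of 0.64, and held 96.6% and 94.6% of the family's TPM. Mta1 was at 1.7 and 3.5 TPM with a log2 ratio of 0.74 whose sign turned with the GC trend subtracted, and Mta2 at 0.1 and 1.1 TPM with a log2 ratio of 0.93. Chd4, the ATPase of NuRD, was at 34.2 and 64.6 TPM with a log2 ratio of 0.90. Its alternative Chd3 was at 0.3 and 0.7 TPM, so that Chd4 made up 99.1% and 98.9% of the pair.

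In the BAF complex the ATPases stood in opposite directions. Smarca4 (BRG1) was at 7.8 TPM in the zygote against 25.5 TPM in PB2, with a log2 ratio of 1.59. Smarca2 (BRM), the alternative ATPase, was at 82.0 TPM in the zygote against 52.1 TPM in PB2, with a log2 ratio of -0.64. Smarca2 remained the more abundant in both libraries, but it was 10.5-fold above Smarca4 in the zygote and 2.04-fold above it in PB2. The share of Smarca4 in the pair was 8.69% in the zygote and 32.9% in PB2. Smarca4 lies at 9:21616169-21704230 on the plus strand with 34 exons in its longest protein-coding transcript, and Smarca2 at 19:26605050-26778322 on the plus strand (GRCm38).

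Other BAF subunits past 2-fold toward PB2 were Arid1a and Smarcd2. Arid1a, the large DNA-binding subunit, was at 28.9 TPM in the zygote against 77.8 TPM in PB2, with a log2 ratio of 1.40, and its paralog Arid1b was at 9.0 and 16.5 TPM with a log2 ratio of 0.81. Arid1a held 76.3% of the pair in the zygote and 82.5% in PB2. Smarcd2, a core subunit, was at 14.3 and 43.2 TPM, a log2 ratio of 1.53. The core scaffolds Smarcc1 and Smarcc2 were low and exchanged order, with Smarcc1 at 2.9 and 6.5 TPM (log2 ratio 0.94) and Smarcc2 at 3.8 and 3.7 TPM (log2 ratio -0.03). The bromodomain subunits Brd7, of PBAF, at 40.2 and 58.4 TPM, and Brd9, of the non-canonical complex, at 55.9 and 66.8 TPM, had log2 ratios of 0.53 and 0.25. The remaining BAF members, Arid2, Smarcb1 and Smarce1, had log2 ratios of 0.60, 0.69 and -0.08. Over the 12 BAF and PBAF members, the median log2 ratio was 0.64, and 3 were past 2-fold toward PB2, beside 18.9% of all genes. With the GC trend subtracted the median was 0.41, and Smarca4, Smarcd2 and Arid1a had log2 ratios of 0.89, 0.76 and 0.64, so none was past 2-fold toward PB2.

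**Figure D3:**
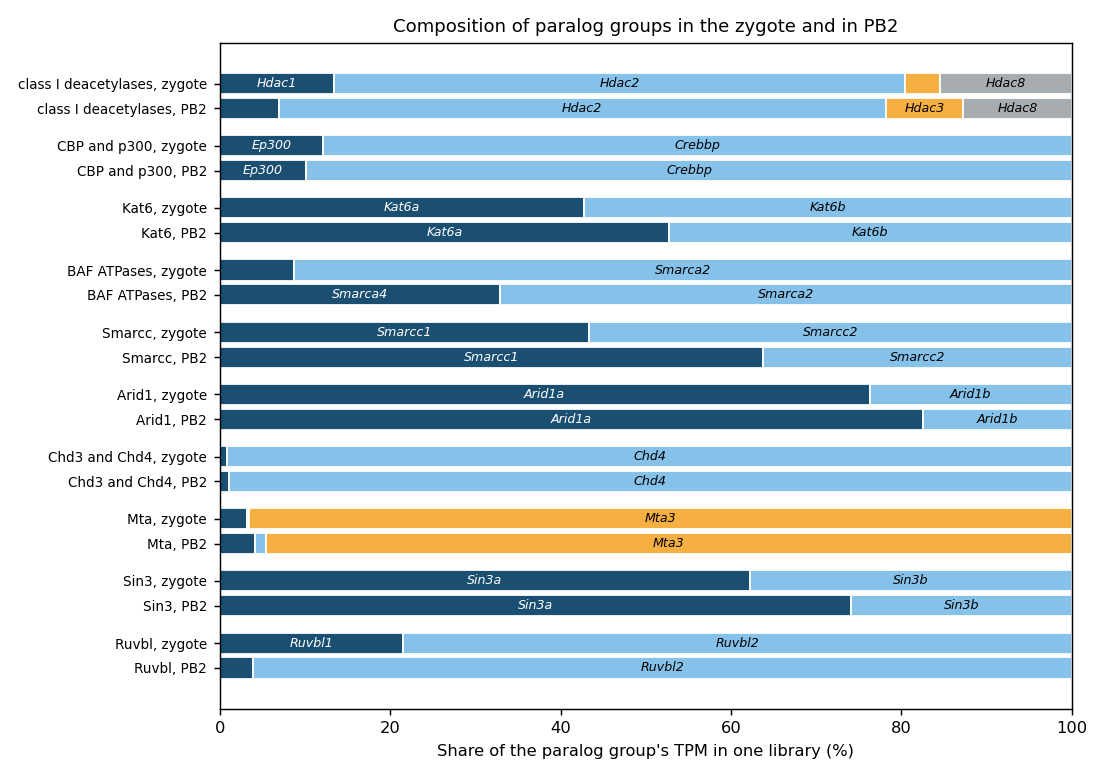
Share of summed TPM held by each member of a paralog group, in percent, in the zygote and in PB2 (1 library each). The Smarca4 share goes from 8.69% to 32.9% and the Ruvbl1 share from 21.5% to 3.84%, while the CBP/p300, Mta and Chd3/Chd4 groups keep nearly the same composition.

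ISWI remodelers space nucleosomes, and their ATPase works with larger partner subunits. The ATPase gene Smarca5 (SNF2H) was at 59.9 TPM in the zygote against 74.7 TPM in PB2, with a log2 ratio of 0.31. Its partners had higher log2 ratios than the ATPase in the deposited TPM, but with the GC trend subtracted Bptf (0.55) and Baz2b (0.51) were below Smarca5 (0.62). Baz1b (WSTF) was at 17.6 and 44.9 TPM with a log2 ratio of 1.30, and Baz2a (TIP5), which silences ribosomal RNA genes, at 17.5 and 44.9 TPM with a log2 ratio of 1.31. Bptf, the bromodomain subunit of NURF, was at 40.7 and 71.7 TPM with a log2 ratio of 0.80. Baz1a (ACF1) and Baz2b had log2 ratios of 0.71 and 0.51. With the GC trend subtracted, Baz1b (0.99) and Baz2a (0.94) were just short of 2-fold, and the group median, 0.76 as deposited, was 0.69.

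CHD remodelers had no member past 2-fold toward PB2, beside 18.9% of all genes, and a median log2 ratio of 0.49 over 7. The median was 0.03 with the GC trend subtracted. With a pseudocount of 0.1, Chd5 and Chd7 reached 2-fold toward PB2, beside 24.6% of all genes. Chd5 was low, with TPM values of 0.9 (zygote) and 1.9 (PB2), and its log2 ratio at that pseudocount was 1.00, on the threshold. Chd7, known for its mutation in CHARGE syndrome, was at 15.7 TPM in the zygote against 32 TPM in PB2, with a log2 ratio of 0.98. Chd1, which travels with elongating RNA polymerase, was lower in PB2 at 17.6 and 11.9 TPM with a log2 ratio of -0.53, and Chd9 had a log2 ratio of -0.22. Chd5, Chd6 and Chd8 had log2 ratios of 0.61, 0.49 and 0.24, and that of Chd5 turned to -0.19 with the GC trend subtracted. Smarcad1 and Smarcal1, SNF2 ATPases outside these families that act at sites of DNA replication and repair, had log2 ratios of 0.19 and 0.31.

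Ruvbl1 and Ruvbl2 encode AAA+ ATPases that assemble together into a ring shared by the INO80, SRCAP and NuA4 complexes, and they lay on opposite sides. Ruvbl1 was at 45.1 TPM in the zygote against 16.9 TPM in PB2, with a log2 ratio of -1.36. Ruvbl2 was at 164.3 TPM in the zygote against 422.8 TPM in PB2, with a log2 ratio of 1.36. Ruvbl2 was thus 3.64-fold above its partner in the zygote and 25.02-fold above it in PB2, and the Ruvbl1 share of the pair was 21.5% and 3.84%. Ruvbl1 lies at 6:88465409-88497572 on the plus strand with 11 exons in its longest protein-coding transcript, and Ruvbl2 at 7:45421760-45438096 on the minus strand.

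The Ruvbl2 value is less certain than that of Ruvbl1. Of its exonic sequence, 19.4% overlaps Gys1 and Lhb on the opposite strand, and whether reads were counted by strand is not given. Both neighbours were higher in PB2, Gys1 at 8.2 and 49.7 TPM and Lhb at 32.5 and 114.3 TPM, and their part in the Ruvbl2 value was not tested. With the GC trend subtracted the log2 ratios were -1.80 for Ruvbl1 and 0.53 for Ruvbl2, so the opposite signs were still present. Before that step the other members of the family were closer to 0 than this pair. Ino80b, past 2-fold, was at 14.6 and 35.3 TPM with a log2 ratio of 1.22, or 0.28 with the GC trend subtracted, and the ATPase gene Ino80 was at 6.0 and 9.1 TPM with a log2 ratio of 0.53. Ino80c, Ino80d and Ino80e had log2 ratios of 0.33, 0.47 and -0.11. With the GC trend subtracted these were 0.32, 0.59 and -0.87, so Ino80d and Ino80e then lay further from 0 than Ruvbl2.

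Similar exonic overlaps above 10% were found for 3 other members. Ino80e shares 47.9% of its exonic sequence with Doc2a, Sirt3 shares 34.6% with Psmd13 and Ric8a, and Kat5 shares 19.8% with Rnaseh2c. Smarce1, Smarca5 and Kat6b have annotated processed pseudogenes, and how reads shared with them were counted is not given.

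Members rich in GC stood further toward PB2, as did genes at large. Over 75 members the rank correlation of the log2 ratio with transcript GC content was 0.47, and over 10606 genes it was 0.44. Both are correlations across genes of the same library pair, and genes are not independent replicates. The 20 members past 2-fold toward PB2 had a median GC content of 54.2%, and the rest of the members 49.0%. No member below 50% GC was past 2-fold toward PB2, with 0 of 9 below 45% and 0 of 22 from 45% to 50%, beside 4.30% and 10.5% of all genes in those ranges. From 50% to 55% GC, 11 of 27 members (40.7%) were past 2-fold, beside 24.9% of all genes, and from 55% upward 9 of 17 (52.9%), beside 43.5%. The median log2 ratio of the members was above that of all genes in each range, at 0.31 against -0.22, 0.45 against 0.079, 0.93 against 0.47 and 1.17 against 0.87 in rising order of GC. Member transcripts were also longer, with a median of 4826 nt against 3066.5 nt for all genes, and with a trend on length subtracted 10 members were past 2-fold toward PB2, beside 12% of all genes, and 1 toward the zygote, beside 11.8%.

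**Figure D4:**
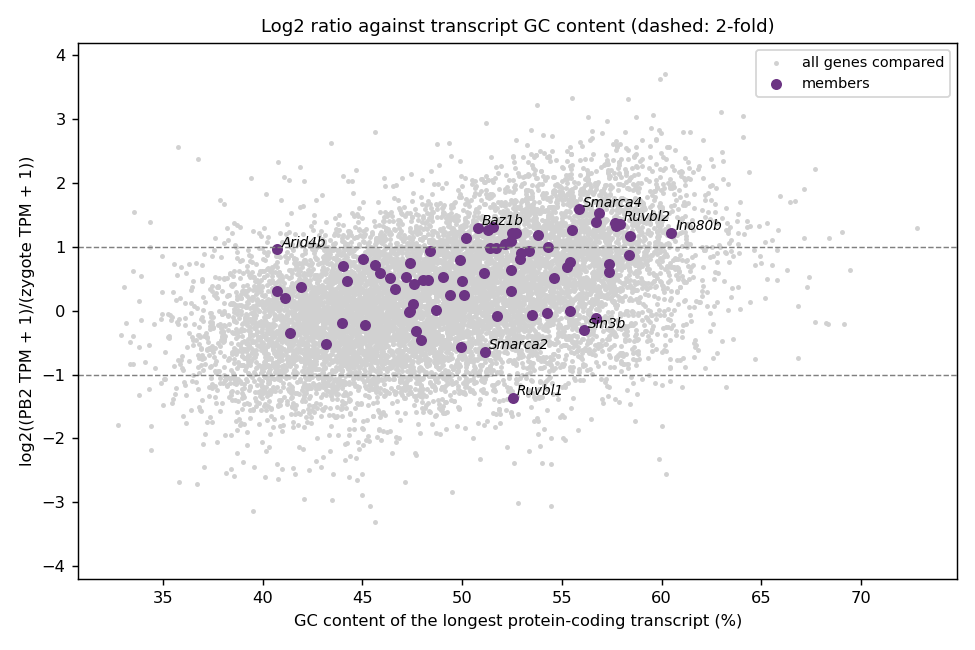
Log2 ratio, PB2 over zygote, against the GC content of the longest protein-coding transcript in percent, for members (purple, 1 left out) and all genes compared (grey); dashed lines mark 2-fold. Both clouds climb with GC content (rank correlation 0.47 for members, 0.44 for all genes), Arid4b lies high for its GC content, and Sin3b, Smarca2 and Ruvbl1 lie low.

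The complexes have further subunits outside these families, and 108 of them could be compared. Of these, 21 (19.4%) were past 2-fold toward PB2 and 5 toward the zygote, and their median log2 ratio was 0.31, so their share toward PB2 was near the 18.9% of all genes. Their median was 0.21 with the GC trend subtracted, against 0.03 for all genes. The most abundant partner was Rbbp7, a histone chaperone of NuRD and SIN3, at 3201.8 TPM in the zygote against 3280.9 TPM in PB2. Sap30, of the SIN3 complex, was at 693.9 TPM in the zygote against 2984.4 TPM in PB2, with a log2 ratio of 2.10. Bcl7c, a BAF subunit, was at 25.9 and 123.9 TPM with a log2 ratio of 2.22. The highest partner ratios thus included subunits of corepressor and BAF complexes.

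By list, the median log2 ratio of partners ran from -0.03 for NuA4 (12 genes) to 0.68 for the HBO1, MOZ, MSL and NSL complexes (10 genes), which had 4 past 2-fold toward PB2. BAF partners had a median of 0.61 over 12 genes with 4 past 2-fold toward PB2, and SIN3, CoREST and NCoR partners 0.58 over 14 genes with 4. For NuRD partners the median was 0.46 over 7 genes with 3, and for SAGA and ATAC partners 0.26 over 16 genes with 4. The NuA4 list and the list of other bromodomain genes had 1 each, and the ISWI, SNF2 and other acetyltransferase lists none. All these counts stand beside 18.9% of all genes. Partners of INO80 and SRCAP had a median of 0.16 over 6 genes with none past 2-fold. Subtracting the GC trend gave medians of 0.49 for HBO1, MOZ, MSL and NSL, 0.35 for BAF and 0.13 for NuRD. It gave 0.004 for SAGA and ATAC, -0.13 for SIN3, CoREST and NCoR, -0.22 for NuA4 and -0.32 for INO80 and SRCAP. For ISWI partners the median was 0.32 before this step and 0.53 after it, the highest of all lists. The other SNF2 ATPases went from 0.06 to -0.02. After the step the other bromodomain genes stood at 0.35 and the other acetyltransferases at 0.24. The sign thus turned for the SIN3, INO80 and SNF2 lists, and the INO80 list was lowest. The partners past 2-fold toward the zygote, with no GC trend subtracted, were Hat1, Actl6a, Supt20, Chrac1 and Hltf. Hat1, the acetyltransferase of newly made histone H4, was at 117.4 TPM in the zygote against 27.3 TPM in PB2, with a log2 ratio of -2.06. Actl6a, an actin-related subunit shared by BAF, INO80 and NuA4, was at 70.6 and 33.8 TPM, a log2 ratio of -1.04. Brdt, the germ-cell member of the BET family that the rule leaves out, was more abundant than Brd2 and Brd3 together, at 673.5 TPM in the zygote against 376.2 TPM in PB2, and its log2 ratio of -0.84 was opposite in sign to theirs.

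**Figure D5:**
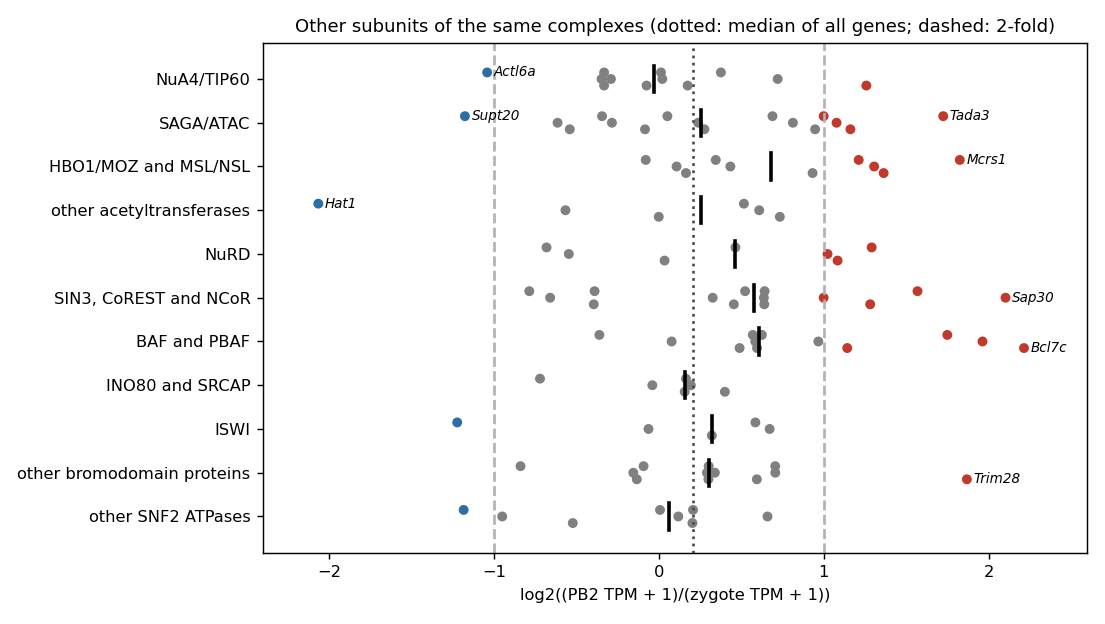
Log2 ratio, PB2 over zygote, of 108 partner subunits grouped by complex; each point is a gene (red past 2-fold toward PB2, blue toward the zygote), black bars are list medians, the dotted line is the median of all genes (0.21) and dashed lines mark 2-fold. Sap30 (2.10) and Bcl7c (2.22) lie far to the right and Hat1 (-2.06) far to the left, and the list medians, with no GC trend subtracted, run from -0.03 (NuA4) to 0.68 (HBO1, MOZ, MSL and NSL).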

How the data were processed

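The deposited table gives TPM for PB2 and for the zygote, 1 library each. Per the labels and the study's methods, the authors amplified full-length cDNA, aligned reads with HISAT2 2.0.4, counted genes with HTSeq 0.6.1p1 and used DESeq2 1.18.1. The submitters' processing notes name both OryCun2.0, a rabbit assembly, and GRCm38, while the identifiers are mouse Ensembl identifiers. How the authors computed TPM, and whether reads were counted by strand, is not given in the sources used here. Values are rounded to 1 decimal, and each value column was tied to its sample through its name, with 0 columns unused. Values sum to 898326 TPM in PB2 (89.8% of a full library) and 927063 TPM in the zygote (92.7%), so some genes were not analysed here. Depth is unknown, and no counting interval can be given.

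Members were taken by the symbol rule in the report. Of 91 symbols in the role groups, 13 were not analysed here. The values of 1 member are not reported here, although counts, medians and sums over the members include it. Log2 ratios used a pseudocount of 1 over genes with at least 1 TPM in either library, and a called gene was past 2-fold. With 1 library per condition there was no test. Values were given for members past 2-fold, at 50 TPM or more, nearest the threshold or in a paralog group; further members were described by their ratios or ranges. Members and lists were chosen with earlier results of these data known, and the promoter motifs, the protein classes and the single partner genes given after their values were seen. GC content and length of a gene refer to its longest protein-coding transcript in GENCODE M21 (GRCm38), and loess trends had a span of 0.3. Promoter windows came from RefSeq (GRCm38.p6), without chromosome 18. Alternatives covered pseudocount, filter, scaling, GC content, length and fold. The scripts ran under Python 3.11.15 with pandas 2.3.3 and numpy 2.4.6, took trends from statsmodels 0.14.6, correlations from scipy 1.17.1 and figures from matplotlib 3.10.9, and were tested on simulated data.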

Additional observations from a re-analysis of the deposited data

How the results depend on the processing

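The count of members past 2-fold toward PB2, 20 as reported, was 2 with the GC trend subtracted, 2 with that trend fitted without the members (chosen after seeing the data), 10 with the length trend subtracted, 39 at 1.5-fold and 0 at 4-fold. Under the other alternatives it lay between 14 and 27, with 13 to 24.7% of all genes past 2-fold toward PB2. The count toward the zygote, 1 as reported, was 2 with either GC trend, 2 at 1.5-fold and 0 at 4-fold, and 1 otherwise. The median log2 ratio of the members, 0.61, was 0.40 centred on all genes, 0.36 with either GC trend and 0.34 with the length trend, and lay between 0.55 and 0.72 otherwise. No value past 2-fold changed sign under any alternative run, but such values were picked for lying far from 0, so this says little about stability. Among members nearer to 0, the sign changed for 3 under centring (Hdac8, Kat6a and Smarcad1), for Hdac8 alone under both other scalings, for 6 under the GC trend (Brd9, Chd5, Hdac6, Hdac8, Mta1 and Smarcal1) and for 7 under the length trend (Brd9, Chd8, Hdac8, Kat6a, Smarca5, Smarcad1 and Smarcal1). Leaving out a replicate could not be run, and depth cannot be assessed, with 1 library per condition. No paired analysis was possible because PB2 and the zygote have a single library each.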

Other observations

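Grouped across complexes by protein domain rather than by role, the 19 members with bromodomains had a median log2 ratio of 0.98, and 9 of them were past 2-fold toward PB2, beside 18.9% of all genes. With the GC trend subtracted their median was 0.55. A list of 12 other bromodomain genes, outside the symbol rule, had a median of 0.30 with 1 past 2-fold toward PB2. This list is not complete, since bromodomain genes such as Pbrm1 (-0.36) and Cecr2 (0.59) were listed with their complexes. The 19 members summed to 410.8 TPM in the zygote against 696.4 TPM in PB2. The 14 ATPases of the remodelers had a median log2 ratio of 0.40 with 2 past 2-fold toward PB2, and the 13 deacetylases and sirtuins a median of 0.74 with 4, also beside 18.9% of all genes. With the GC trend subtracted the medians were 0.37 for the ATPases and 0.31 for the deacetylases and sirtuins. Bromodomain members include Brd2, Brd3, Brd1, Brpf3, Baz1b, Baz2a and Smarca4, and some genes, such as Smarca4 and Smarca2, belong to both the bromodomain and the ATPase class. These classes were drawn up after the values were seen, and no test was made of them.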
